A study of Homo sapiens with 8 samples.

Results

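RNA-seq libraries of PNT2 cells with both *ERF* KD and *CIC* KO (replicates A and B) were compared with the libraries labelled *ERF* KD (replicates A and B), so that 4 of the 8 libraries of the series stand on the 2 sides of the comparison. PNT2 is an immortalized line of normal human prostate epithelium, grown in DMEM with fetal bovine serum in every group. *ERF* was silenced with short hairpin RNA under puromycin selection, and *CIC* was disrupted with Cas9 and guide RNA under blasticidin selection. The other groups are parental cells (WT) and the libraries labelled *CIC* KO, with 2 libraries each. The 2 sides of the comparison were set by the sample labels, and the comparison was chosen with earlier results of these data known. By the labels, it asks which genes and pathways differ when *CIC* loss is added to *ERF* KD. The level of *ERF* mRNA contradicts that reading, as given below. Whether the letters A and B mark different hairpins or guides, separate cultures or repeats of a single culture is not given in the sources used here, so the p-values measure the spread between these libraries, which may be technical.

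CIC and ERF are transcriptional repressors downstream of the RAS and MAPK pathway. CIC binds short octamers in regulatory DNA and holds down the PEA3 factors *ETV1*, *ETV4* and *ETV5* and the feedback inhibitors of the DUSP, SPRY and SPRED families. ERF is an ETS factor that represses at ETS sites and leaves the nucleus when ERK phosphorylates it. Epithelial cells such as those of the prostate are joined by E-cadherin junctions, claudins and desmosomes and carry keratin filaments. In an epithelial-mesenchymal transition, repressors such as ZEB1 and ZEB2 silence these genes while vimentin and N-cadherin appear.

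The labels have to be read with a caution. *ERF* (ENSG00000105722, chromosome 19, 42247572 to 42255157, minus strand, GRCh38) had 81.2 and 77.8 CPM (counts scaled to library size after TMM normalization) in the 2 libraries labelled *ERF* KD and 11.6 and 10.4 in the 2 libraries of *ERF* KD + *CIC* KO. It was 55.8 and 55.9 CPM in WT and 18.8 and 11.7 in the libraries labelled *CIC* KO. *ERF* mRNA was therefore high in the libraries labelled *ERF* KD and low in the other single-loss group, and the single-loss tables were deposited under names whose letters contradict their labels. The difference between *ERF* KD + *CIC* KO and the libraries labelled *ERF* KD was -2.85 on the log2 scale (SE 0.219, adjusted p = 0.000172). *CIC* (ENSG00000079432, chromosome 19, 42268537 to 42295797, plus strand) had 108 and 109 CPM in the labelled *ERF* KD libraries against 90.9 and 66.4 in *ERF* KD + *CIC* KO, a log2 difference of -0.47 (SE 0.156, adjusted p = 0.0950, or 0.0428 once the fit held the replicate letter as a block). Disruption by Cas9 need not change the level of an mRNA, so *CIC* mRNA does not check its label. The labels were kept, and every direction below rests on a label that *ERF* mRNA contradicts. With the 2 single-loss labels exchanged, the same values would be a comparison with a *CIC* KO line.

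Log2 fold changes, standard errors (SE) and Benjamini-Hochberg adjusted p-values are from edgeR's quasi-likelihood test, with all 8 libraries in 1 fit and 14653 genes left after a filter on low counts. A gene is called when its adjusted p is under 0.05. The libraries held between 19477473 and 25813157 estimated counts, so that 3 counts, used below as a floor, come to less than 1 CPM. The median log2 difference of all genes tested was 0.00.

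Between *ERF* KD + *CIC* KO and the libraries labelled *ERF* KD, 1709 genes were called, 11.7% of those tested. Of these, 885 (6.04%) were higher in *ERF* KD + *CIC* KO and 824 (5.62%) lower. The higher genes changed more, with a median fold change of 3.04 and 348 genes at 4-fold or over, against a median of 2.16 and 184 genes among the lower ones. With the replicate block, 3014 genes were called (20.6%), 1550 higher and 1464 lower, and 1708 of the 1709 were among them. Wherever a list is given below with the block, its counts stand against this 20.6%, not against 11.7%. Without *ERF* KD + *CIC* KO replicate A the number was 702, without replicate B of the same group 995, without labelled *ERF* KD replicate A 1149 and without its replicate B 1069. In the same fit 10 genes (0.0682%) were called between *ERF* KD + *CIC* KO and WT, and 0 (0.00%) against the libraries labelled *CIC* KO, where 1216 had an unadjusted p under 0.05 and 49 (0.334%) were called with the block. The libraries labelled *ERF* KD differed from WT in 1477 genes (10.1%). These comparisons share libraries with the one described here. Where WT levels are given below, they show on which side a gene stood apart. In the labelled *ERF* KD libraries against WT, 17 of 20 junction, 9 of 12 desmosome and 7 of 12 keratin genes were called lower and 0 higher. For *ERF* KD + *CIC* KO against WT, 0, 1 and 0 were called lower and 0 higher. Of 18 mesenchymal genes, 5 were higher and 1 lower in the former, and 0 and 1 in the latter. With only 10 genes called in all against WT, the latter counts could hardly be other than small. With the block, 0 junction, 2 desmosome, 1 keratin and 4 mesenchymal genes were lower in *ERF* KD + *CIC* KO than in WT, and 0 were higher. The mesenchymal median log2 fold change was then -0.59, so the 2 groups were not shown to be alike.

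**Figure D1:**
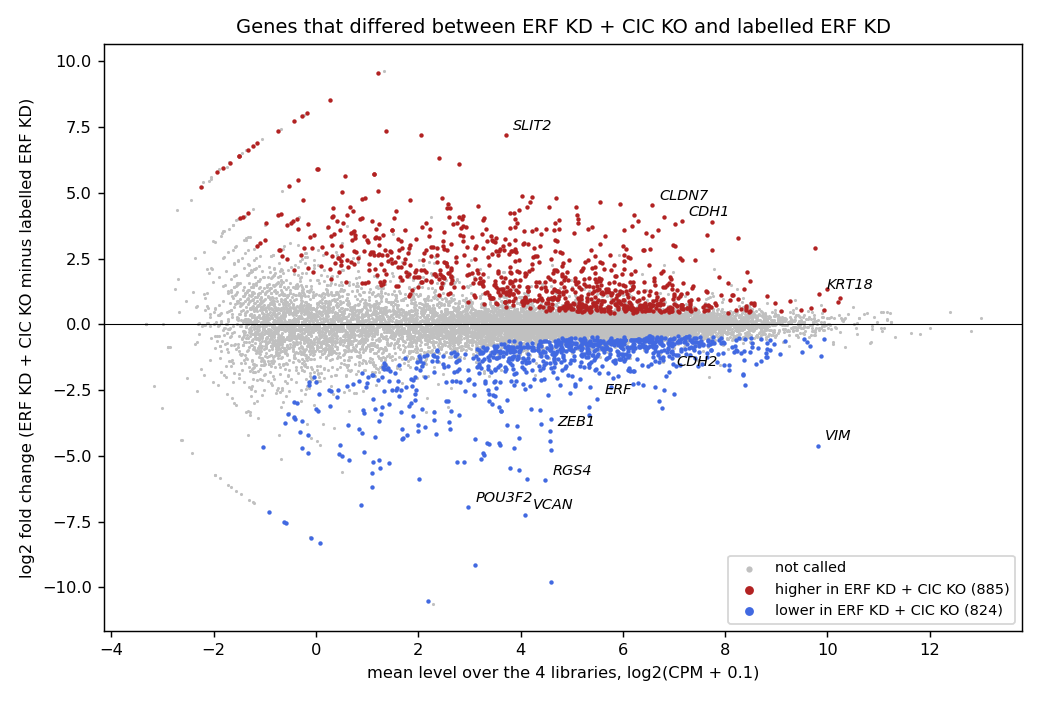
Log2 fold change of *ERF* KD + *CIC* KO over the libraries labelled *ERF* KD (vertical axis) against the mean level of the 4 libraries as log2(CPM + 0.1) (horizontal axis). Each point is 1 of the 14653 genes tested; the 885 red genes were called higher, the 824 blue ones lower and the grey ones were not called, and the diagonal rows at the left are genes at or near 0 counts in a group, whose fitted fold change is no bound.

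Genes of epithelial cell junctions were higher in *ERF* KD + *CIC* KO. Of the 20 tested genes of adherens and tight junctions, 18 were called higher and 0 lower (90%, against 11.7% of all genes tested). Their median log2 fold change was 2.65, against 0.00 for all genes tested. *CDH1*, which encodes E-cadherin (ENSG00000039068, chromosome 16, 68737225 to 68835548), had 17.6 CPM in both libraries labelled *ERF* KD and 258 and 273 in *ERF* KD + *CIC* KO (log2 fold change 3.92, SE 0.145, adjusted p = 1.78e-05). WT had 362 and 385 CPM of it, so the labelled *ERF* KD libraries were the ones that stood apart. *CLDN7*, a claudin of tight junctions, had 7.20 and 8.54 CPM against 167 and 197 (log2 fold change 4.53, SE 0.204, adjusted p = 2.48e-05). *ST14*, which encodes the epithelial surface protease matriptase, had 7.16 and 8.64 CPM against 128 and 153 (log2 fold change 4.15, SE 0.197, adjusted p = 2.72e-05). *RAB25*, a GTPase of epithelial recycling vesicles, had 2.83 and 3.53 CPM against 42.2 and 58.5 (log2 fold change 3.98, SE 0.218, adjusted p = 4.40e-05). For each of these 4 genes the lower library of *ERF* KD + *CIC* KO was more than 10 times the higher library labelled *ERF* KD. Of the 2 members that were not called, *CLDN1* had 84.9 and 106 CPM against 129 and 104, where the groups overlap. *CLDN7* shares 269 exonic bases with *AC003688.1* on the same strand, which had a mean of 0.783 CPM.

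Desmosomes, which anchor keratin filaments at the cell border, were higher in part. Of 12 tested genes, 6 were called higher and 0 lower (50%, against 11.7% of all genes tested, or 7 higher with the block). The median log2 fold change was 0.92. *DSP*, the plakin that links desmosomes to keratin, had 131 and 148 CPM in the libraries labelled *ERF* KD and 608 and 494 in *ERF* KD + *CIC* KO (log2 fold change 1.98, SE 0.152, adjusted p = 0.000172). *JUP*, which encodes plakoglobin, went from 53.2 and 33.5 CPM to 157 and 199 (log2 fold change 2.04, SE 0.239, adjusted p = 0.00140). The log2 fold change was 1.82 for *DSC2*, a desmosomal cadherin (SE 0.148, adjusted p = 0.000219), and 1.80 for *PKP3*, a plakophilin (SE 0.188, adjusted p = 0.000771). The desmosomal cadherin *DSG2* was not called, with 206 and 173 CPM against 235 and 241 (log2 fold change 0.33, SE 0.153, adjusted p = 0.222). Both of its *ERF* KD + *CIC* KO libraries were above both of the others by a small margin, as was so for 26.8% of all genes tested.

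Keratins form the intermediate filaments of epithelia. Of 12 tested keratin genes, 8 were called higher and 0 lower (66.7%, against 11.7% of all genes tested), with a median log2 fold change of 1.80. Fewer were called with a library left out, 3 without labelled *ERF* KD replicate A, 6 without its replicate B and 4 without either library of *ERF* KD + *CIC* KO. *KRT5*, a keratin of basal cells, had 15.0 and 19.2 CPM in the libraries labelled *ERF* KD and 90.7 and 256 in *ERF* KD + *CIC* KO (log2 fold change 3.34, SE 0.588, adjusted p = 0.00898). Its replicates differed widely, and the log2 fold change ran from 2.41 to 3.91 when a library was left out, with the call lost without labelled *ERF* KD replicate A. The log2 fold change was 2.92 for *KRT16* (SE 0.445, adjusted p = 0.00496), 2.79 for *KRT81* (SE 0.214, adjusted p = 0.000172) and 1.81 for *KRT17* (SE 0.349, adjusted p = 0.0133). Reads of keratins with close copies could have been divided between them, which the replicate spread does not show.

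Keratins of simple epithelium were 3 of the 5 most abundant genes called higher. *KRT8* had 695 and 912 CPM against 1390 and 1841 (log2 fold change 1.01, SE 0.240, adjusted p = 0.0318), and the call was lost whichever of the 4 libraries was left out (log2 fold change 0.79 to 1.22). Its partner *KRT18* had 533 and 608 CPM against 1146 and 1365 (log2 fold change 1.14, SE 0.171, adjusted p = 0.00471). *KRT8* and *KRT18* share 525 exonic bases on opposite strands. *KRT7* had 751 and 855 CPM against 1149 and 1170 (log2 fold change 0.53, SE 0.132, adjusted p = 0.0369). The call of *KRT7* was also lost whichever library was left out (log2 fold change 0.44 to 0.63) and in 4 of the 7 other fits that kept all 4 libraries. The other 2 of these 5 genes were *GPRC5A*, a retinoic acid-induced receptor, with 866 and 815 CPM against 1477 and 1550, and *CD24*, a surface glycoprotein, with 823 and 335 CPM against 1513 and 1423. The call of *GPRC5A* was lost whichever library was left out, and that of *CD24* without either library of *ERF* KD + *CIC* KO.

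Genes of hemidesmosomes and laminin-332, which attach epithelium to the basement membrane, were called mostly with the replicate block. Only *LAMB3* of the 9 tested was called without the block (11.1%, against 11.7% of all genes tested). With it 5 were called higher and 1 lower, where 20.6% of all genes were called. The median log2 fold change was 1.09. *LAMB3*, a laminin chain, had 20.1 and 34.9 CPM against 154 and 296 (log2 fold change 3.03, SE 0.614, adjusted p = 0.0165). Replicate B of *LAMB3* was higher than replicate A in either group, and its call was lost without labelled *ERF* KD replicate A or *ERF* KD + *CIC* KO replicate B.

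The regulators that maintain epithelial identity moved the same way as the junction genes. Of 14 tested, 9 were called higher and 0 lower (64.3%, against 11.7% of all genes tested), with a median log2 fold change of 1.89. *ESRP1*, a splicing factor that sets epithelial isoforms, had 10.4 and 14.4 CPM against 194 and 225 (log2 fold change 4.08, SE 0.195, adjusted p = 2.72e-05). *GRHL2*, an activator of junction genes, had 14.1 and 17.6 CPM against 190 and 188 (log2 fold change 3.58, SE 0.154, adjusted p = 2.18e-05). OVOL1 and OVOL2 are zinc finger repressors of mesenchymal genes. *OVOL2* had 0.672 and 0.894 CPM against 14.0 and 13.4 (log2 fold change 4.12, SE 0.244, adjusted p = 6.62e-05), and *OVOL1* had 0.672 and 2.24 CPM against 28.8 and 30.8 (log2 fold change 4.36, SE 0.482, adjusted p = 0.00101). All 4 genes were low in the libraries labelled *ERF* KD, and WT lay near *ERF* KD + *CIC* KO, with 208 and 206 CPM for *ESRP1* and 178 and 167 for *GRHL2*. *KLF5* was not called (65.3 and 46.2 CPM against 103 and 74.7, adjusted p = 0.0707, or 0.0209 with the block).

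The transcription factors of the opposite programme were lower in *ERF* KD + *CIC* KO, but fewer of them. Of 10 tested factors of epithelial-mesenchymal transition, 3 were called lower and 0 higher (30%, against 11.7% of all genes tested, or 5 lower with the block). The median log2 fold change was -1.01. *ZEB1* (ENSG00000148516, chromosome 10, 31318495 to 31529814) had 41.1 and 49.0 CPM in the libraries labelled *ERF* KD and 2.50 and 2.93 in *ERF* KD + *CIC* KO (log2 fold change -4.05, SE 0.211, adjusted p = 3.76e-05). *ZEB2* (ENSG00000169554, chromosome 2, 144364364 to 144524583) had 40.1 and 38.2 CPM against 3.09 and 2.48 (log2 fold change -3.80, SE 0.240, adjusted p = 8.11e-05). WT had 6.08 and 7.04 CPM of *ZEB1* and 3.47 and 4.79 of *ZEB2*, above *ERF* KD + *CIC* KO in each library. *TCF4*, an E protein that can repress *CDH1*, had 13.5 and 16.7 CPM against 5.93 and 8.12 (log2 fold change -1.11, SE 0.266, adjusted p = 0.0326). Its fold change was smaller when transcript length entered, with -0.31 on length-scaled counts (adjusted p = 0.768). *TWIST1* was called with the block (20.2 and 17.1 CPM against 9.74 and 9.87, adjusted p = 0.0715, or 0.0294 with the block). *SNAI2*, which encodes SLUG, did not follow them, with 16.7 and 52.2 CPM against 102 and 61.2, a log2 fold change of 1.25 that was not called (SE 0.453, adjusted p = 0.118).

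Of 18 tested mesenchymal genes, 6 were called lower and 0 higher (33.3%, against 11.7% of all genes tested, or 10 lower and 1 higher with the block). The median log2 fold change was -1.36. *VIM*, which encodes vimentin, had 1497 and 1953 CPM in the libraries labelled *ERF* KD and 32.4 and 109 in *ERF* KD + *CIC* KO (log2 fold change -4.61, SE 0.619, adjusted p = 0.00271). WT had 105 and 211 CPM of it. *VCAN*, the matrix proteoglycan versican, had 40.1 and 27.4 CPM against 0.212 and 0.226 (log2 fold change -7.24, SE 0.472, adjusted p = 8.79e-05). *CDH2*, which encodes N-cadherin, had 178 and 195 CPM against 44.1 and 63.3 (log2 fold change -1.80, SE 0.237, adjusted p = 0.00246). *COL3A1*, a fibrillar collagen, had 9.89 and 1.79 CPM against 0.593 and 0.113 (log2 fold change -3.96, SE 0.926, adjusted p = 0.0293). Its log2 fold change ran from -5.62 to -2.27 when a library was left out, and the call was lost in 4 of the 7 other fits and without any library other than labelled *ERF* KD replicate B. The most abundant member, *FN1*, which encodes fibronectin, went the other way and was called higher with the block (1587 and 1966 CPM against 2053 and 2831, log2 fold change 0.46, SE 0.212, adjusted p = 0.215, or 0.0198 with the block). The matrix glycoprotein *TNC* was called lower with the block (231 and 298 CPM against 119 and 169, adjusted p = 0.0868, or 0.00213 with the block).

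**Figure D2:**
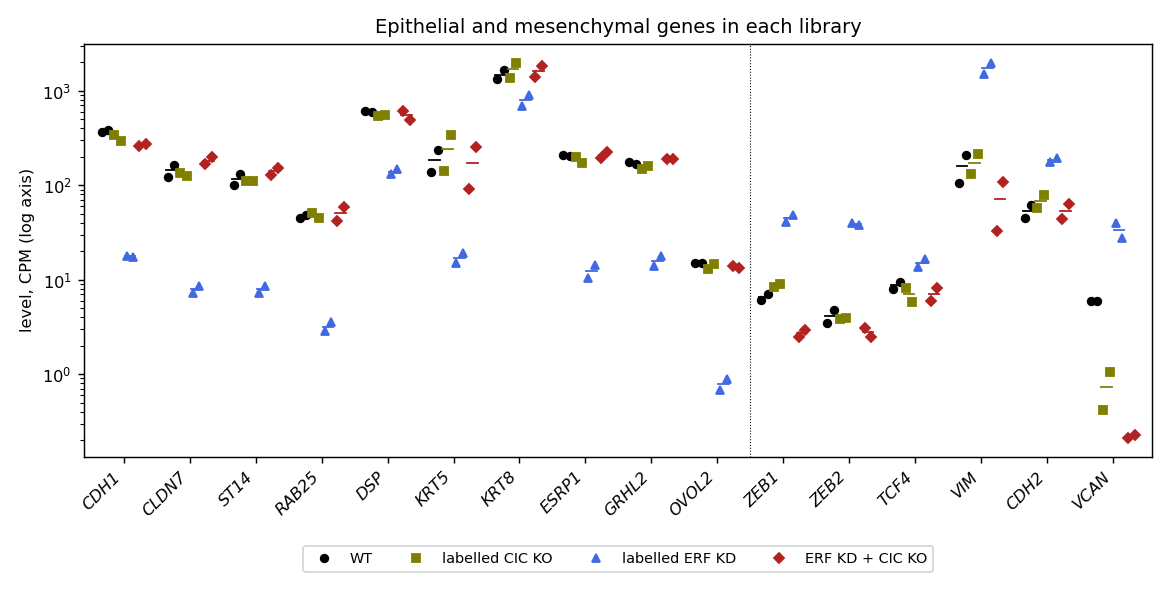
Level in CPM on a log axis of 10 epithelial genes (left of the dotted line) and 6 mesenchymal genes or transition factors (right) in the 8 libraries. Each symbol is 1 library and each short line the mean of 2; the libraries labelled *ERF* KD (blue triangles) lie below the other 6 for the epithelial genes and above them for the mesenchymal ones.

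RNA of other cell types was looked for with marker lists, since the libraries are from bulk cultures, in which fewer cells of a type and less RNA per cell cannot be told apart. Of all genes tested 11.7% were called, so a list of 4 or 6 genes can be without a call at that share. By edgeR, 0 of 6 tested endothelial markers were called (3 higher at an unadjusted p under 0.05, and 0 called by DESeq2). The calls were also 0 of 4 leukocyte and 0 of 4 melanocyte and neural crest markers (0 at an unadjusted p under 0.05 and 0 by DESeq2 in either list). Of 9 fibroblast and stromal markers 1 (*COL3A1*) was called lower (11.1%, near the share of all genes). In that list 4 genes were lower and 0 higher at an unadjusted p under 0.05, 1 was called lower by DESeq2 and 2 with the block, and 8 of the 9 fold changes were negative. The summed level of the 13 fibroblast and stromal genes was 59.8 and 34.1 TPM (a length-corrected relative abundance) in the libraries labelled *ERF* KD and 48.7 and 39.9 in *ERF* KD + *CIC* KO. Of their defining members, *LUM* was at 0 counts in the 4 libraries, *DCN* had 3 to 6 counts, and *PDGFRA* had 20 and 25 counts in the labelled *ERF* KD libraries against 7 and 3. *SOX10* was at 0 counts in the 4 libraries. The 10 leukocyte genes summed to 35.0 and 44.1 TPM against 18.0 and 24.9, and *CD68* was called lower with the block (19 and 46.8 CPM against 5.54 and 21.8, adjusted p = 0.345, or 0.00134 with the block). The 8 endothelial genes summed to 10.4 and 3.86 TPM against 32.5 and 9.25, and *CDH5* was called higher with the block (14.0 and 2.68 CPM against 65.4 and 15.0, adjusted p = 0.181, or 0.00106 with the block). The part of other cells in the epithelial and mesenchymal differences was not tested. The epithelial markers *CDH1*, *EPCAM*, *KRT5*, *KRT8* and *KRT18* were present in every library. Of the prostate luminal markers, *KLK3* was at 0 counts in the 4 libraries.

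ZEB1 and ZEB2 are known to bind the E-box CAGGTG, read as CACCTG on the other strand. Promoters were therefore searched for these 6 letters on both strands, in the 250 bases before the transcription start of RefSeq (GRCh38.p14). A gene was given the window nearest, within 500 bases, to the 5′ end of its most abundant transcript, which left 9223 of the genes tested with a window. The E-box was in 28.8% of the 524 windows of genes called higher, in 11% of the 571 of genes called lower and in 15.9% of all 9223, against 17.5% of all 35116 windows of the RefSeq table. Of other E-boxes, CACGTG was in 6.87%, 8.58% and 8.81%, and CAGCTG in 11.1%, 11.2% and 12.4%, in the same order. The CIC octamers TGAATGAA and TGAATGGA, searched together, were in 1.53%, 1.23% and 1.39%. These shares are descriptions without a test, a match is not evidence of binding, and no binding was measured in these libraries.

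The share of genes called higher grew with the number of CAGGTG boxes in the window. It was 4.81% of 7752 genes without one, 8.80% of 1284 genes with 1, 15.9% of 157 genes with 2 and 43.3% of 30 genes with 3 or more. The share called lower was 6.55%, 4.52%, 2.55% and 3.33% in the same order. The last 2 groups are small, with 25 and 13 genes called higher. When the first window listed for a gene was used instead, a choice added after the data were seen, the E-box was in 28.1% of windows of genes called higher, 11.7% of those called lower and 16.5% of all tested.

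**Figure D3:**
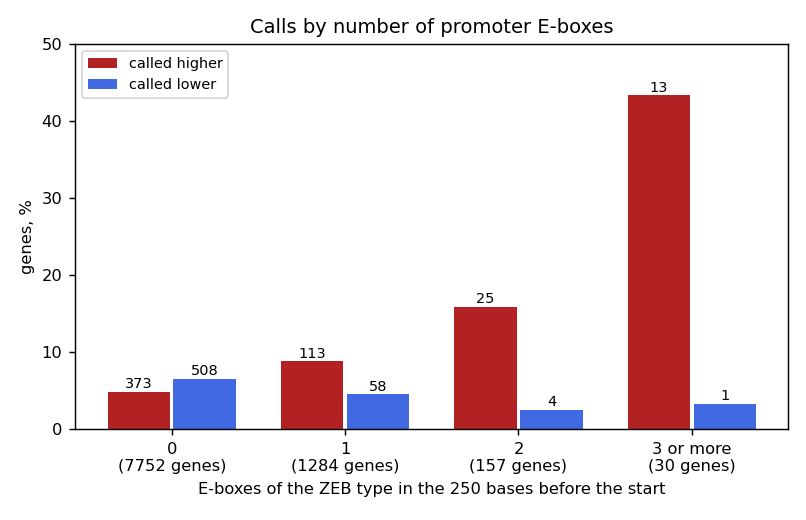
Percent of genes called higher (red) or lower (blue) in *ERF* KD + *CIC* KO (vertical axis) by the number of E-boxes CAGGTG or CACCTG in the 250 bases before the start (horizontal axis, with the number of genes in each group). The numbers over the bars are the genes called; the red bars grow from 4.81% to 43.3%, and the last group holds 30 genes.

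Stretches of 5 promoters that hold the box are shown, from junction, desmosome and keratin genes described above and from *CRB3*, a polarity protein of tight junctions. The box was in 5 of 11 windows of the junction list, 3 of 8 of the desmosome list and the 1 window of the keratin list. *OCLN*, *TJP3*, *DSC2* and *DSG2* of these lists also have a match and are not shown, and *DSG2* was not called. In the list of epithelial regulators the box was in 2 of 5 windows, those of *ELF3* and *GRHL3*. *GRHL3* was not called. The stretches shown are thus all from genes called higher. *CRB3* was chosen for the number of its E-boxes and had 1.78 and 2.14 CPM against 28.1 and 28.7 (log2 fold change 3.86, SE 0.197, adjusted p = 3.66e-05). Capitals mark the E-box on either strand, and each sequence runs 5′ to 3′ on the strand of its gene, with positions counted back from the start of transcription at -1.
CRB3, chr19:6464039-6464068, plus strand, positions -232 to -203: aatgCAGGTGtaaggtccccctcaCACCTG
CLDN7, chr17:7262479-7262508, minus strand, positions -30 to -1: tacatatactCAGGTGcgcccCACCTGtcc
RAB25, chr1:156061100-156061159, plus strand, positions -60 to -1: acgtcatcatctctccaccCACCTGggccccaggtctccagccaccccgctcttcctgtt
DSP, chr6:7541481-7541574, plus strand, positions -190 to -97: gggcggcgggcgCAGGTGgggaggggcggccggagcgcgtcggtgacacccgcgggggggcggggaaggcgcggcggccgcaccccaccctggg
KRT5, chr12:52520507-52520536, minus strand, positions -142 to -113: cacaccactgtgCAGGTGtgaccggtgagc
The stretch of *CRB3* and that of *CLDN7* hold a pair of boxes in opposite orientation. The windows of *CRB3*, *CLDN7* and *DSP* hold more of them outside the stretches shown. Exons of other annotated transcripts of the same gene overlap the stretches of *CRB3*, *CLDN7* and *KRT5*.

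**Figure D4:**
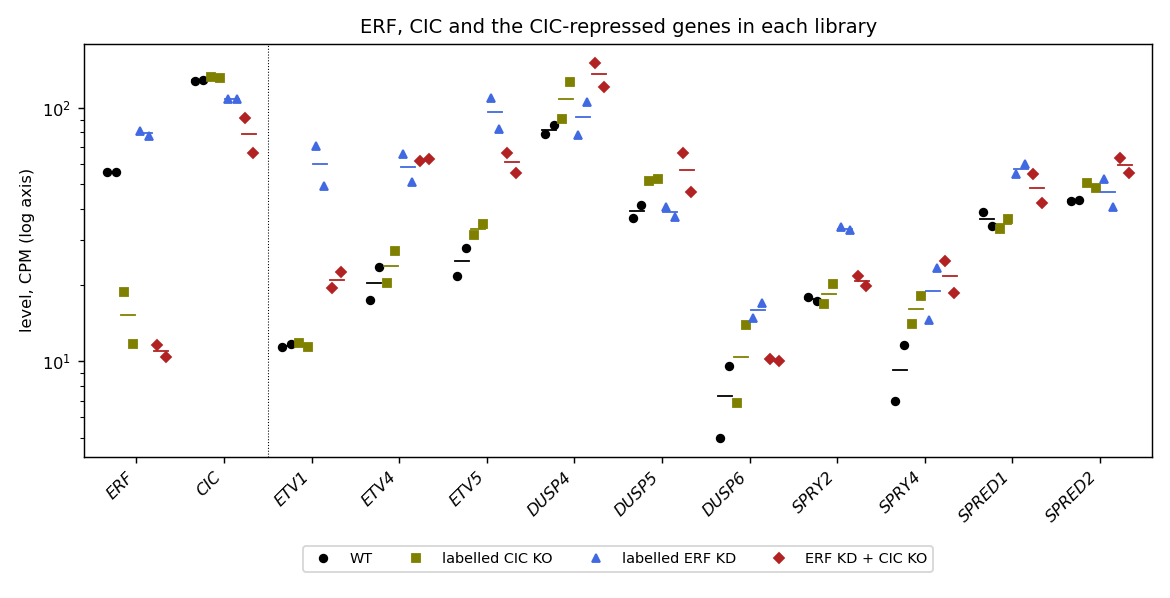
Level in CPM on a log axis of *ERF* and *CIC* (left of the dotted line) and of the 10 CIC-repressed genes (right) in the 8 libraries. Each symbol is 1 library and each short line the mean of 2; *ERF* is low in *ERF* KD + *CIC* KO and in the libraries labelled *CIC* KO, and *ETV1* is highest in the libraries labelled *ERF* KD.

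Of the 10 genes tested that are widely described as repressed by CIC, 2 (20%, against 11.7% of all genes tested) were called lower in *ERF* KD + *CIC* KO and 0 higher (3 lower and 1 higher with the block), with a median log2 fold change of -0.07. *ETV1* (ENSG00000006468, chromosome 7, 13891228 to 13991425), a PEA3 factor, had 70.7 and 49.4 CPM in the libraries labelled *ERF* KD and 19.5 and 22.4 in *ERF* KD + *CIC* KO (log2 fold change -1.52, SE 0.194, adjusted p = 0.00215). *SPRY2*, a feedback inhibitor of receptor signalling, had 33.8 and 32.9 CPM against 21.8 and 19.8 (log2 fold change -0.68, SE 0.155, adjusted p = 0.0266). The *SPRY2* call was lost with only the 4 libraries in the fit (adjusted p = 0.0610) and when any of these libraries was left out. *ETV5* had 109 and 82.6 CPM against 66.5 and 55.4 and was called in some fits (log2 fold change -0.65, adjusted p = 0.0621, or 0.0361 with the block and 0.0222 with DESeq2). *ETV4* was not called, with 65.5 and 51.0 CPM against 61.8 and 62.8 (log2 fold change 0.10, SE 0.206, adjusted p = 0.820). *DUSP5*, an ERK phosphatase, was called higher with the block (40.5 and 37.0 CPM against 66.6 and 46.7, adjusted p = 0.0869, or 0.0493 with the block). For *DUSP4*, *DUSP6*, *SPRY4*, *SPRED1* and *SPRED2* the log2 fold change lay between -0.65 and 0.57, with adjusted p from 0.129 to 0.763. Both groups were above WT for *ETV1*, *ETV4* and *ETV5*, whose WT libraries had 11.4 and 11.7, 17.4 and 23.5, and 21.8 and 28.1 CPM.

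Of the 91 genes that the study lists as targets of both *CIC* and *ERF*, 58 were tested, with a median log2 fold change of 0.15. With the block 6 were called higher and 12 lower, where 20.6% of all genes were called. Without it 5 were called higher and 7 lower (20.7%, against 11.7% of all genes tested). Without *ERF* KD + *CIC* KO replicate A these were 2 and 3, without its replicate B 3 and 3, without labelled *ERF* KD replicate A 5 and 4 and without its replicate B 2 and 6. The list was made by the study and includes *ETV1*. *ZFHX4*, a zinc finger and homeodomain factor, had 24.6 and 30.1 CPM against 6.86 and 4.40 (log2 fold change -2.27, SE 0.267, adjusted p = 0.00141). *NFIB*, a nuclear factor I protein, had 57.5 and 50.6 CPM against 23.4 and 12.2 (log2 fold change -1.60, SE 0.296, adjusted p = 0.0113). *CREG2* had 11 and 17.8 CPM against 54.3 and 61.6 (log2 fold change 2.01, SE 0.238, adjusted p = 0.00146). *FOXL2*, a forkhead factor, had 0.336 and 0.199 CPM against 1.65 and 1.97 (log2 fold change 2.73, SE 0.540, adjusted p = 0.0150).

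**Figure D5:**
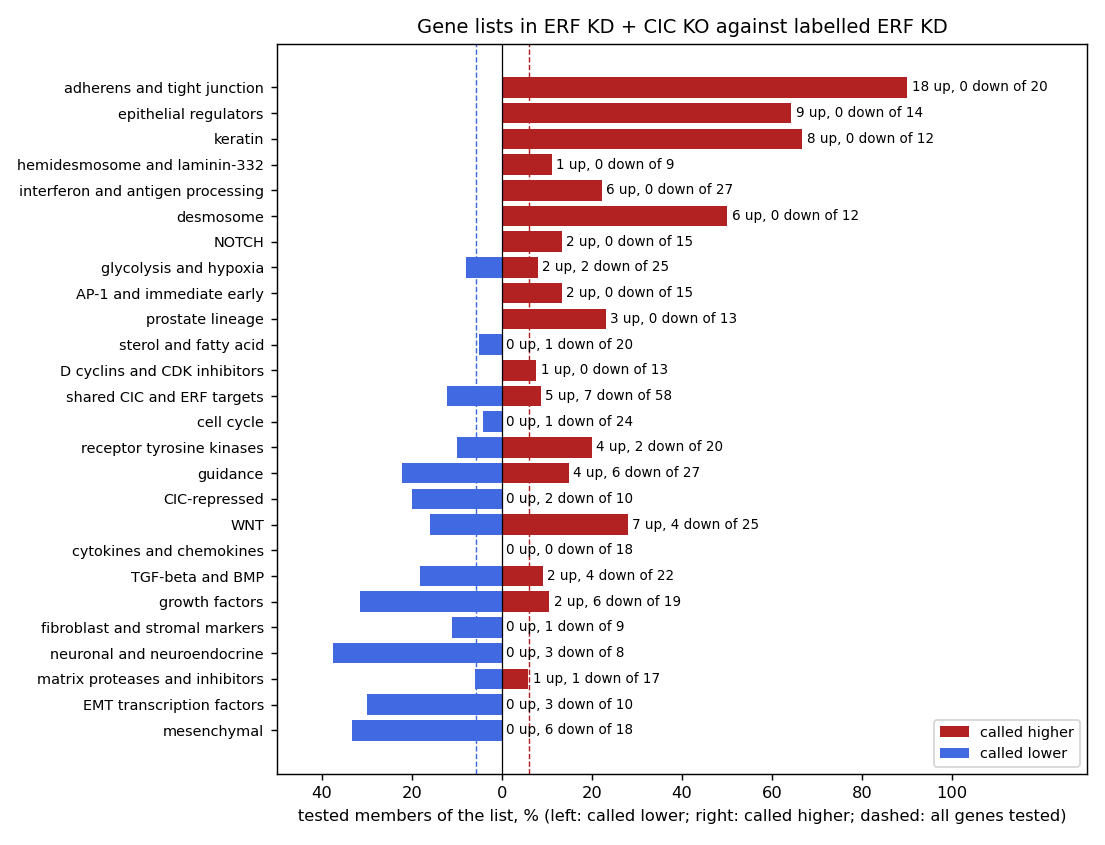
Percent of the tested members of each gene list that were called higher (red, to the right) or lower (blue, to the left) in *ERF* KD + *CIC* KO against the libraries labelled *ERF* KD, for the lists with at least 8 tested members, ordered by median log2 fold change. Dashed lines mark the shares of all genes tested (6.04% higher and 5.62% lower); junction genes, epithelial regulators and keratins reach furthest to the right.

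Guidance genes moved in both directions. Of 27 tested genes of the SLIT, semaphorin, netrin and ephrin systems, 4 were called higher and 6 lower (37.0%, against 11.7% of all genes tested), or 6 and 8 with the block. These counts changed when a library was left out. *SLIT2*, a ligand of ROBO receptors (ENSG00000145147, chromosome 4, 20253260 to 20620561), had 0 and 0.348 CPM in the libraries labelled *ERF* KD and 32.3 and 19.2 in *ERF* KD + *CIC* KO (log2 fold change 7.18, SE 0.791, adjusted p = 0.000994). WT lay between, with 7.22 and 4.64 CPM. *ROBO4*, a receptor of the ROBO family, had 1.20 and 1.69 CPM against 4.91 and 5.47 (log2 fold change 1.84, SE 0.366, adjusted p = 0.0154). The class 3 semaphorins *SEMA3E* and *SEMA3D* were lower, with 20.9 and 15.4 CPM against 4.40 and 3.44 for *SEMA3E* (log2 fold change -2.21, SE 0.298, adjusted p = 0.00276) and 9.56 and 28.8 against 3.60 and 3.50 for *SEMA3D* (log2 fold change -2.43, SE 0.519, adjusted p = 0.0206).

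Of 8 tested neuronal and neuroendocrine genes, 3 were called lower and 0 higher (37.5%, against 11.7% of all genes tested). *POU3F2*, a POU factor of neural precursors (ENSG00000184486, chromosome 6, 98834592 to 98839470), had 15.5 and 15.4 CPM in the libraries labelled *ERF* KD and 0.212 and 0 in *ERF* KD + *CIC* KO (log2 fold change -6.96, SE 0.689, adjusted p = 0.000620). *RGS4*, which speeds the shut-off of G proteins, had 27.4 and 60.1 CPM against 0.889 and 0.507 (log2 fold change -5.92, SE 0.580, adjusted p = 0.000588). *SYP*, which encodes the vesicle protein synaptophysin, had 7.97 and 3.58 CPM against 1.69 and 1.97 (log2 fold change -1.66, SE 0.428, adjusted p = 0.0428), and the call was lost in 4 of the 7 other fits that kept all 4 libraries.

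Receptor tyrosine kinases carry growth factor signals to RAS. Of 20 tested, 4 were called higher and 2 lower (30%, against 11.7% of all genes tested), or 5 and 4 with the block. Both counts changed when a library was left out. *FGFR2*, a receptor for fibroblast growth factors, had 2.40 and 0.546 CPM against 24.1 and 12.7 (log2 fold change 3.64, SE 0.671, adjusted p = 0.0111), and *MST1R*, the receptor RON, had 17.7 and 12.5 CPM against 78.7 and 79.3 (log2 fold change 2.39, SE 0.184, adjusted p = 0.000172). *FGFR4* had 3.27 and 1.59 CPM against 10.5 and 6.6 (log2 fold change 1.81, adjusted p = 0.0353). *AXL*, a receptor often abundant in mesenchymal cells, had 996 and 1078 CPM against 599 and 560 (log2 fold change -0.84, SE 0.131, adjusted p = 0.00545). *NTRK2*, a neurotrophin receptor, had 4.23 and 2.48 CPM against 0.296 and 0.0564 (log2 fold change -4.13, SE 1.10, adjusted p = 0.0465), and its call was lost whichever library was left out. *MET*, the receptor of hepatocyte growth factor, was not called (292 and 290 CPM against 263 and 210, adjusted p = 0.326).

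Among 19 tested growth factors and their binding proteins, 2 were called higher and 6 lower (42.1%, against 11.7% of all genes tested, or 7 and 8 with the block). Without *ERF* KD + *CIC* KO replicate A 0 were higher and 1 lower, without its replicate B 1 and 3, without labelled *ERF* KD replicate A 3 and 3, and without its replicate B 3 and 2. The fibroblast growth factor genes *FGF5* and *FGF1* were lower, with 9.99 and 29 CPM against 1.31 and 4.74 for *FGF5* (log2 fold change -2.71, SE 0.712, adjusted p = 0.0453) and 12.2 and 15.9 against 2.96 and 6.03 for *FGF1* (log2 fold change -1.65, SE 0.374, adjusted p = 0.0260). *IGFBP5*, a binding protein of insulin-like growth factors, had 27.5 and 15.8 CPM against 9.35 and 8.51 (log2 fold change -1.28, adjusted p = 0.0170). *VEGFA*, the angiogenic factor, had 69.1 and 66.7 CPM against 131 and 103 (log2 fold change 0.78, SE 0.141, adjusted p = 0.0102). *FGFBP1*, a carrier of fibroblast growth factors, had 2.26 and 0.844 CPM against 4.53 and 8.63 (log2 fold change 2.07, SE 0.530, adjusted p = 0.0410).

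In the TGF-beta and BMP pathway, 2 of 22 tested genes were called higher and 4 lower (27.3%, against 11.7% of all genes tested), or 4 and 6 with the block. Fewer were lower when a library was left out. *TGFBR1*, the type I receptor of TGF-beta, had 324 and 234 CPM against 95.0 and 99.1 (log2 fold change -1.53, SE 0.217, adjusted p = 0.00350). *BAMBI*, a pseudoreceptor that dampens the signal, had 10.2 and 13.8 CPM against 5.25 and 5.07 (log2 fold change -1.22, SE 0.329, adjusted p = 0.0490). *INHBB*, a subunit of activin and inhibin, had 4.27 and 2.98 CPM against 93.3 and 36.6 (log2 fold change 4.16, SE 0.441, adjusted p = 0.000809), and *ID4*, an inhibitor of helix-loop-helix factors, had 0.961 and 1.59 CPM against 12.8 and 13.5 (log2 fold change 3.36, SE 0.275, adjusted p = 0.000227). *TGFBI*, a matrix protein named for its induction by TGF-beta, was called higher with the block (229 and 306 CPM against 366 and 505, adjusted p = 0.0947, or 0.0106 with the block).

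WNT genes had 7 of 25 tested called higher and 4 lower (44%, against 11.7% of all genes tested), or 7 and 5 with the block. Fewer were called in each direction when a library was left out. *WNT10A*, a secreted WNT ligand, had 2.02 and 0.944 CPM against 34.6 and 31.6 (log2 fold change 4.47, SE 0.311, adjusted p = 0.000113). *WNT7A* had 0.432 and 0.397 CPM against 4.19 and 3.95 (log2 fold change 3.28, SE 0.335, adjusted p = 0.000735), and *WNT9A* had 1.20 and 1.74 CPM against 4.23 and 5.30 (log2 fold change 1.69, SE 0.319, adjusted p = 0.0122). *FZD6*, a frizzled receptor, had 5.76 and 3.82 CPM against 14.9 and 12.9 (log2 fold change 1.54, SE 0.324, adjusted p = 0.0196). The 2 groups do not overlap for any of these 4 genes. Of 15 tested NOTCH genes, 2 were called higher and 0 lower (13.3%, against 11.7% of all genes tested), and 5 were higher with the block. Their number changed when a library was left out. The 2 called without the block were the ligand *JAG2*, with 104 and 73.3 CPM against 208 and 167 (log2 fold change 1.08, SE 0.185, adjusted p = 0.00782), and *HES2*, a helix-loop-helix repressor, with 0.720 and 0.646 CPM against 3.64 and 5.02 (log2 fold change 2.65, SE 0.335, adjusted p = 0.00206).

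Immediate early genes answer MAPK signals within minutes. Of 15 tested, 2 were called higher and 0 lower (13.3%, against 11.7% of all genes tested). With the block these were 4 and 1, where 20.6% of all genes were called. *EGR1*, a zinc finger factor induced by ERK, had 10.3 and 10.4 CPM in the libraries labelled *ERF* KD and 82.3 and 63.3 in *ERF* KD + *CIC* KO (log2 fold change 2.82, SE 0.413, adjusted p = 0.00415), and 49.0 and 46.1 in WT. *JUNB*, an AP-1 subunit, had 21.9 and 16.5 CPM against 52.2 and 59.5 (log2 fold change 1.54, SE 0.189, adjusted p = 0.00175). *FOSL1*, another AP-1 subunit, was called lower with the block (238 and 392 CPM against 179 and 190, adjusted p = 0.220, or 0.0291 with the block). *JUNB* shares 259 exonic bases with *HOOK2* on the opposite strand.

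Interferon-stimulated and antigen processing genes were higher in part, and more of them with the replicate block. Of 27 tested, 6 were called higher and 0 lower (22.2%, against 11.7% of all genes tested), and 14 higher and 0 lower with the block. The median log2 fold change was 0.97. Without *ERF* KD + *CIC* KO replicate A, 1 was called higher, and *HLA-B*, *IRF7* and *GBP1* lost their calls; without labelled *ERF* KD replicate B, 4 were called and *HLA-B* was lost again. *HLA-B*, a class I antigen-presenting chain, had 225 and 122 CPM against 706 and 373 (log2 fold change 1.64, SE 0.344, adjusted p = 0.0193), and near-identical HLA genes could have shared its reads. *IRF7*, a factor of the interferon response, had 13.2 and 6.11 CPM against 70.6 and 33.5 (log2 fold change 2.43, SE 0.428, adjusted p = 0.00898). *GBP1*, a GTPase induced by interferon, had 16.2 and 7.20 CPM against 53.3 and 35.0 (log2 fold change 1.91, SE 0.368, adjusted p = 0.0133), and *TAP2*, a peptide transporter, 36.4 and 27.3 against 82.9 and 65.7 (log2 fold change 1.22, SE 0.187, adjusted p = 0.00496). *B2M*, the light chain of class I molecules, passed with the block (844 and 571 CPM against 1348 and 982, adjusted p = 0.0742, or 0.0196 with the block). In both groups replicate A was higher than replicate B for each of these 5 genes. Among 18 tested cytokines and chemokines 0 were called by edgeR (against 11.7% of all genes tested), with 3 lower at an unadjusted p under 0.05. In the fit with the block 1 was called higher and 3 lower, where 20.6% of all genes were called. DESeq2 called 3 lower.

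Of 24 tested cell cycle genes, 1 was called lower and 0 higher (4.17%, against 11.7% of all genes tested), or 1 and 2 with the block. The gene called without the block was *TOP2A*, the topoisomerase of dividing cells, with 1094 and 819 CPM against 612 and 574 (log2 fold change -0.69, SE 0.173, adjusted p = 0.0384), and its call was lost in the fit with only the 4 libraries compared (adjusted p = 0.0820). The replication helicase gene *MCM4* had 619 and 653 CPM against 810 and 724 and was not called (log2 fold change 0.27, SE 0.135, adjusted p = 0.253). Of 13 tested D cyclins, CDK inhibitors and their partners, *CCND2* alone was called without the block, as higher (7.69% of the list). With the block 3 were called higher and 2 lower, where 20.6% of all genes were called. *CCND2*, which encodes cyclin D2 (ENSG00000118971, chromosome 12, 4273772 to 4305350), had 15.2 and 42.7 CPM against 165 and 293 (log2 fold change 2.98, SE 0.468, adjusted p = 0.00553), while WT had 193 and 223.

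Of 25 tested genes of glycolysis and the hypoxia response, 2 were called higher and 2 lower (16%, against 11.7% of all genes tested, or 8 and 2 with the block). The 2 lower calls were lost without labelled *ERF* KD replicate B or either library of *ERF* KD + *CIC* KO. *SLC2A3*, a glucose transporter, had 58.9 and 48.2 CPM against 291 and 286 (log2 fold change 2.43, SE 0.375, adjusted p = 0.00520). *PFKFB3*, which makes an activator of phosphofructokinase, had 124 and 162 CPM against 63.6 and 64.8 (log2 fold change -1.15, SE 0.280, adjusted p = 0.0338), and *PFKP*, the platelet phosphofructokinase, 533 and 595 against 328 and 358 (log2 fold change -0.72, SE 0.156, adjusted p = 0.0222). Of 20 tested sterol and fatty acid genes, only *IDI1* of the isoprenoid pathway was called (5%), as lower (157 and 145 CPM against 99.3 and 110, adjusted p = 0.0317). The block called 5 higher and 2 lower in that list, where it called 20.6% of all genes.

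Of 17 tested matrix proteases and inhibitors, 1 was called higher and 1 lower, together 11.8% against 11.7% of all genes tested (2 higher and 5 lower with the block, where 20.6% of all genes were called). *MMP15*, a membrane-bound metalloproteinase, had 22.8 and 20.5 CPM against 35.9 and 40.3 (log2 fold change 0.82, SE 0.137, adjusted p = 0.00720), and *TIMP2*, an inhibitor of metalloproteinases, had 678 and 512 CPM against 327 and 294 (log2 fold change -0.94, SE 0.191, adjusted p = 0.0169). Of 13 tested prostate lineage genes, 3 were called higher and 0 lower (23.1%, against 11.7% of all genes tested), or 4 and 0 with the block. The number called higher changed when a library was left out. *TMPRSS2*, an androgen-responsive protease of prostate epithelium, had 0.384 and 0.546 CPM against 3.89 and 2.48 (log2 fold change 2.77, SE 0.510, adjusted p = 0.0110), although it was not called on length-scaled counts (adjusted p = 0.251). *SLC45A3*, which encodes prostein, had 5.96 and 9.93 CPM against 19.6 and 19.2 (log2 fold change 1.29, SE 0.248, adjusted p = 0.0132). *GATA2*, a zinc finger factor, had 8.93 and 13.8 CPM against 26.7 and 18.5 (log2 fold change 1.0, SE 0.266, adjusted p = 0.0471).

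The genes with the largest fitted fold changes were nearly absent in one of the groups. For those at 3 counts or fewer in each library of a group, the fitted value depends on the prior count, so the ratio of summed counts per library total is given, with an exact 95% interval that covers counting error only. Among the lower genes, *COL11A1*, a fibrillar collagen chain, had 79.8 and 16 CPM in the libraries labelled *ERF* KD and 2 counts in *ERF* KD + *CIC* KO (ratio 1014, interval 280.2 to 8375). *EDIL3*, an integrin ligand of the matrix, had 24.5 and 9.74 CPM against 1 count (ratio 722, interval 129 to 28570), and *ZNF804A*, a zinc finger protein, 3.07 and 3.87 CPM against 1 count (ratio 145, interval 25.6 to 5770). *GDF1* was at 0 counts in *ERF* KD + *CIC* KO, at least 124.6-fold lower against a floor of 3 counts over the group, but 2517 of its exonic bases are shared with *CERS1* on the same strand.

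Other genes of this kind had some counts on both sides. *CD180*, a surface protein related to Toll-like receptors, had 31.5 and 36.8 CPM against 0.296 and 0.902 (log2 fold change -5.88, SE 0.455, adjusted p = 0.000172). *GABRA3*, a subunit of GABA receptors, had 29.5 and 31.1 CPM against 0.635 and 0.677 (log2 fold change -5.52, SE 0.272, adjusted p = 2.95e-05). *ANKRD34A* had 8.02 and 7.45 CPM against 0 and 0.282 (log2 fold change -5.88, SE 0.977, adjusted p = 0.00699). *PI15*, a secreted peptidase inhibitor, had 5.48 and 2.58 CPM against 2 counts (ratio 84.8, interval 23.1 to 706), and *GUCY1A2*, a guanylate cyclase subunit, 5.57 and 2.43 CPM against 3 counts (ratio 56.2, interval 18.9 to 275). WT was also low for each of these 5 genes, at most 1.99 CPM in a library.

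Among the higher genes, *NFATC1*, a calcium-regulated factor, had 0.0480 and 0.199 CPM in the libraries labelled *ERF* KD and 12.8 and 7.84 in *ERF* KD + *CIC* KO (log2 fold change 6.33, SE 0.636, adjusted p = 0.000676). *ANO2*, a calcium-activated chloride channel, had 0.240 and 0.149 CPM against 18.2 and 8.97 (log2 fold change 6.08, SE 0.549, adjusted p = 0.000372). *S100A9*, a calcium-binding protein of stressed epithelium and myeloid cells, had 1 count in the labelled *ERF* KD libraries against 3.68 and 6.15 CPM (ratio 192, interval 34.0 to 7616). *RUBCNL*, a regulator of autophagy, had 2 counts against 8.0 and 8.01 CPM (ratio 162, interval 44.5 to 1343). *ATP2A3*, a calcium pump, had 3 counts against 3.77 and 4.51 CPM (ratio 55.1, interval 18.5 to 270.0), and *CRCT1*, a cornified envelope gene, 3 counts against 3.30 and 4.96 CPM (ratio 54.2, interval 18.2 to 265).

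*SIGLEC6*, a sialic acid-binding lectin, had 2 counts against 3.34 and 2.09 CPM (ratio 56.8, interval 15.4 to 474), and *TCHHL1*, a relative of trichohyalin, 3 counts against 2.75 and 2.37 CPM (ratio 34.9, interval 11.6 to 172). *GBP6*, a guanylate-binding protein, was at 0 counts in the libraries labelled *ERF* KD and at 1.44 and 2.99 CPM in *ERF* KD + *CIC* KO, at least 28.4-fold higher. *KIF24*, a kinesin, was at 0 counts in the libraries labelled *ERF* KD and in WT and at 6.73 and 2.20 CPM in *ERF* KD + *CIC* KO, at least 64.6-fold higher than in the former. *KIF24* shares 143 exonic bases with *UBAP1* on the opposite strand, and DESeq2 did not call it (adjusted p = 0.228). For 11 of the 12 genes with the largest rise, *KIF24* being the exception, WT also had counts.

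The 5 most abundant protein-coding genes called lower were *CAVIN1*, *VIM*, *AXL*, *TOP2A* and *TPM1*. *CAVIN1*, a coat protein of caveolae, had 1238 and 1088 CPM against 795 and 788 (log2 fold change -0.56, SE 0.130, adjusted p = 0.0294), and *TPM1*, a tropomyosin of actin filaments, 794 and 990 against 629 and 584 (log2 fold change -0.56, SE 0.150, adjusted p = 0.0486). Neither was called with only the 4 libraries in the fit (adjusted p = 0.0912 and 0.116).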

How the data were processed

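RNA-seq was measured in 8 libraries of PNT2 cells, which a sequencing company made and sequenced. The authors deposited a table per library with estimated counts of transcripts (not normalized) and TPM, which are scaled by effective transcript length to 1 common total. The tables have kallisto's columns, whereas the study's methods name RSEM. The kallisto version, the transcript annotation and the strandedness are not given in the sources used here. The submitters' processing notes name hg19. The 180253 transcripts of a table were matched by identifier to GENCODE release 29 (GRCh38), which held 85.0% of them, and no coordinate was taken from the tables.

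Estimated counts were added up per gene (33791 genes, with 93.2% to 93.3% of a library's counts) and rounded, and the unmatched rest was left out. After filterByExpr, which kept 14653 genes, and TMM normalization, edgeR 4.0.16 (quasi-likelihood fit and test, R 4.3.3) was run with the 4 groups in a single fit, since the spread is poorly known from 2 libraries. The biological coefficient of variation was 0.197. An exact permutation test of 2 libraries against 2 cannot reach 0.05, so none was used. Samples were grouped by their labels. Replicates differed by more than sampling noise in every group (chi-square over its degrees of freedom 21.5 to 43.1).

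Whether the letters A and B pair the libraries was checked by the correlation, across genes, of the difference between A and B in 2 groups. It was 0.136 to 0.335 for the 6 pairs of groups, and 0.187 for the groups compared here, so the letters may pair them. Values are from the fit without the block unless stated. Blocked values are printed beside many, not all, of those whose call they change. Alternatives were the block, DESeq2 1.42.0, no filter on low counts, a fit of the 4 libraries alone, limma 3.58.1 on log2(TPM + 1) and log2(TPM + 0.1), length-scaled counts, and each library left out in turn.

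Named genes were *ERF*, *CIC* and the CIC-repressed genes, the 12 largest changes in each direction among called protein-coding genes with non-overlapping groups and 1 CPM or more on average, the 5 most abundant of these in each direction, and from each list up to 4 called members with the largest change and up to 2 abundant members not called. The comparison, the gene lists and these rules were chosen with earlier results of these data known. The test was checked on simulated counts. A few genes that the rule names are not reported here. Promoter windows are RefSeq's.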

Additional observations from a re-analysis of the deposited data

How the results depend on the processing

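The number of genes called was 3014 with the replicate block (1550 higher, 1464 lower) and 2798 with no filter on low counts (1443 higher, 1355 lower). It was 1113 with limma on log2(TPM + 1), where 544 were higher. The other fits of all 4 libraries gave 1186 to 2312. Leaving out a library gave 702 to 1149 genes, 445 to 667 of them higher and 257 to 513 lower, and the share that was higher ran from 52.0% to 63.4%, against 51.8% with all libraries. None of the 1709 calls turned direction in the block, DESeq2, unfiltered, 4-library or limma fits or when a library was left out, and 1 did on length-scaled counts. Of the 114 genes named here that were called, 63 kept their call under every alternative.

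Of those named, 46 lost the call when some library was left out, each with its direction kept, and in 11 of them this was so for any of the 4 libraries (*BAMBI*, *CAVIN1*, *GDF1*, *GPRC5A*, *IDI1*, *KIF24*, *KRT7*, *KRT8*, *NTRK2*, *SPRY2* and *TCF4*). Leaving out *ERF* KD + *CIC* KO replicate A cost the most, with 43, among them *HLA-B*, *IRF7*, *GBP1*, *FGFR2*, *KRT17*, *FGF5*, *JAG2* and *VEGFA*. Without replicate B of that group 32 were lost, *LAMB3*, *SCG2* and *WNT9A* among them. Without labelled *ERF* KD replicate A 24 were lost, with *KRT5*, *LAMB3* and *TMPRSS2* among them, and without its replicate B also 24, with *HLA-B*, *FGF5* and *PFKP* among them. The direction turned for 2 genes that were not called: *ETV4* had a log2 fold change of -0.072 without labelled *ERF* KD replicate B (0.29 at the other end of the range over libraries left out), and *SPRY4* of -0.11 without labelled *ERF* KD replicate A and -0.03 without *ERF* KD + *CIC* KO replicate A (0.57 at the other end). *COL3A1*, *FGFR4*, *GATA2*, *IDI1*, *KRT7*, *SPRY2*, *SYP*, *TCF4*, *TOP2A* and *TPM1* were lost in 4 of the 7 other fits. The causes were not tested. With 2 libraries per group, the precision is set by the spread between them and, for genes near 3 counts, by depth.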

Other observations

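Several abundant genes with no values given above were also far apart, and were chosen here after their values were seen. All are outside the gene lists except *EPCAM*, which is one of the junction genes counted above. *EEF1A2*, a translation elongation factor of nerve and muscle, had 56.6 and 58.1 CPM in the libraries labelled *ERF* KD and 585.7 and 524 in *ERF* KD + *CIC* KO (log2 fold change 3.28, SE 0.137, adjusted p = 1.78e-05), and its close copy *EEF1A1* could have shared reads with it. *EPCAM*, an epithelial adhesion molecule, had 41.1 and 29.4 CPM against 354 and 381 (log2 fold change 3.38, SE 0.197). *CDH3*, which encodes P-cadherin, had 51.7 and 30 CPM against 225 and 247 (log2 fold change 2.53, SE 0.249). *KLK5*, a kallikrein protease of stratified epithelium, had 11 and 23.3 CPM against 212 and 270.2 (log2 fold change 3.81, SE 0.352). The complement component *C3* had 47.6 and 41.6 CPM against 195 and 285 (log2 fold change 2.43, SE 0.265). *ALPP*, a placental alkaline phosphatase with near-identical copies, had 327 and 79.2 CPM against 2092 and 959 (log2 fold change 2.91, SE 0.630), and *SPOCK2*, a matrix proteoglycan, 39.8 and 14.2 against 570.3 and 236 (log2 fold change 3.90, SE 0.707).

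In the other direction, *CTGF*, a matrix-associated growth factor modulator, had 158 and 209 CPM against 19.3 and 29.7 (log2 fold change -2.91, SE 0.235). *IGFBP4*, a binding protein of insulin-like growth factors, had 551 and 570.3 CPM against 119.9 and 105 (log2 fold change -2.32, SE 0.168). *MME*, the membrane peptidase CD10, had 662 and 376 CPM against 127 and 148 (log2 fold change -1.92, SE 0.258). *MAP1B*, a microtubule protein of neurons, had 158 and 221 CPM against 22.6 and 44.0 (log2 fold change -2.51, SE 0.317), and *SCG2*, a secretogranin of neuroendocrine vesicles, 155 and 235 against 11.6 and 31.6 (log2 fold change -3.19, SE 0.735). Each of these 12 genes had an adjusted p under 0.05 by edgeR's quasi-likelihood test over all genes tested.

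The share of genes called was highest on chromosome 4 (21.8%, with 63 of 523 genes higher and 51 lower, and a median log2 fold change of 0.10), against 11.7% of all genes tested. On some chromosomes 1 direction was more common. Of 143 genes tested on chromosome 21, 13 were called higher and 0 lower (9.09%), with a median log2 fold change of 0.33 (quartiles -0.02 and 0.51). Of 597 on chromosome 9, 15 were called higher and 69 lower, with a median of -0.27 (quartiles -0.60 and -0.05), and of 469 on chromosome 14, 19 were higher and 39 lower, with a median of -0.18. On chromosome 1 the median was 0.15, with 162 of 1521 genes higher and 67 lower. Against WT, the median of chromosome 21 was -0.14 in the libraries labelled *ERF* KD and 0.13 in *ERF* KD + *CIC* KO, and that of chromosome 9 was 0.19 and -0.08. These are descriptions of the libraries, no copy number was measured, and genes of a chromosome are not independent replicates.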
